A study of Rattus norvegicus with 18 samples.

Results

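The genes of matricellular and fibrosis-associated matrix proteins were examined in rat lungs as a set of 10 genes out of the 22081 listed in the deposited tables. The members were chosen by symbol, with earlier results of these data known. *Fn1*, *Tnc*, *Postn*, *Sparc*, *Thbs1*, *Thbs2*, *Cthrc1*, *Eln*, and *Fbln2* were found under their own names. *Ctgf* was found as *Ccn2*, for which it is a listed synonym in RefSeq. RNA was measured by RNA-seq in the accessory lobe of male F344 rats. The MWCNT-treated rats had received 0.5 mg/kg of MWNT-7, a straight and rigid multi-walled carbon nanotube, and the control rats the vehicle, saline with Tween 80. Both groups were instilled through the trachea every 4 weeks from 9 weeks of age. Lungs of 3 control rats and 3 MWCNT-treated rats were taken at each of Years 0.5, 1, and 2, which were weeks 26, 52, and 104, and every one of the 18 rats was a different animal. Tissue with tumour nodules seen at necropsy was excluded, and the fixed remainder of the lobe was examined under the microscope for absence of tumours. The paper states that focal hyperplasias, atypical ones among them, and early adenomatous lesions could still have been in the frozen samples. The RNA came from bulk tissue, in which more or fewer cells of a type and more or less RNA per cell cannot be told apart. Total counts ranged from 13297643 to 21130757 per rat, and 3 rats per group limit the precision of every mean. The libraries of Year 2 carry identifiers set apart from those of the earlier years, and the labels do not say whether this marks a batch. Any such batch could not be told apart from the time point. The library of control rat 1 of Year 2 also carries a suffix unlike that of every other library, and its meaning is not given. The summed TPM of 9 alveolar epithelial marker genes was between 31167 and 61875 in every rat.

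Matricellular proteins are secreted into the extracellular matrix without being its main building material, and they act by binding receptors, growth factors, and fibres. Thrombospondins 1 and 2, CCN2, tenascin-C, periostin, and SPARC belong to this class. Fibronectin forms fibrils on which other matrix proteins are assembled, elastin and the fibulins build the elastic fibres that let the lung recoil, and CTHRC1 is a secreted protein known from collagen-producing fibroblasts. Several of these genes are induced by TGF-beta, and thrombospondin 1 and the integrins that contain the alpha-v chain are known to release TGF-beta from its latent form.

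The regions just upstream of 3 members are shown. They were picked for their differences in response and in sequence, so they cannot show how motif and response go together. *Ccn2* and *Thbs1* were higher in MWCNT-treated rats and *Fbln2* was lower. RefSeq windows of build GRCr8 matched 6 of the 10 members, namely *Tnc*, *Postn*, *Sparc*, *Thbs1*, *Fbln2*, and *Ccn2*, and were not matched for *Fn1*, *Thbs2*, *Cthrc1*, and *Eln*. Each sequence below holds the 250 bases before the annotated start, written 5′ to 3′ on the strand of the gene, and capitals mark GGAATG on either strand, the core of the binding motif of TEAD factors, through which YAP and TAZ act on *Ccn2*. They lie at chr1:22624615-22624864 on the minus strand for *Ccn2*, at chr3:125510000-125510249 on the plus strand for *Thbs1*, and at chr4:125261409-125261658 on the plus strand for *Fbln2*.
Ccn2: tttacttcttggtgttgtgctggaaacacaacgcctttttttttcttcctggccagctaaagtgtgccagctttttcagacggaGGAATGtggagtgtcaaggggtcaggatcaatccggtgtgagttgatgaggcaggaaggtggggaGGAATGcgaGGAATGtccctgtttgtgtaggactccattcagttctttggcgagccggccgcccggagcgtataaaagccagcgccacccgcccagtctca
Thbs1: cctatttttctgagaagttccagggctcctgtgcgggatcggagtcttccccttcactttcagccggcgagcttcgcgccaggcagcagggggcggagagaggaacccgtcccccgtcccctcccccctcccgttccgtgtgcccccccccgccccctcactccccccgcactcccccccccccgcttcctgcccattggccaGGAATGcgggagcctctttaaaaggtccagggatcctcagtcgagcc
Fbln2: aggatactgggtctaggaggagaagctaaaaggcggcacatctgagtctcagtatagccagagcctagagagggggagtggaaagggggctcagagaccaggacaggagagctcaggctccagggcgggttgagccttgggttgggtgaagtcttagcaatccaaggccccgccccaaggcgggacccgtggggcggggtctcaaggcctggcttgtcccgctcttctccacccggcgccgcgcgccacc

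The window of *Ccn2* held 3 matches to GGAATG, which began at positions -166, -101, and -92, where -1 is the base next to the start. One match was found in *Thbs1* at -47 and one in *Sparc*, on the opposite strand, at -33. *Tnc*, *Postn*, and *Fbln2* had none in this window. Of 33465 rat windows of the same length, 12.1% held at least 1 match and 27, or 0.0807%, held 3 or more. Other motifs were searched on both strands. TATAAA was present at -31 in *Ccn2*, at -44 in *Postn*, and at -208 in *Tnc*, against 12.9% of all windows. GGGCGG, the core bound by SP1, had 3 matches in *Fbln2*, 2 each in *Thbs1* and *Ccn2*, and 1 in *Tnc*, and was present in 30.5% of all windows. No letters of the AP-1 motif TGANTCA, of the SMAD palindrome GTCTAGAC, or of the CArG box stood in the 6 windows, and these were present in 6.34%, 0.173%, and 1.5% of all windows. No match overlapped one of another motif. *Sparc*, which held a match, had log2 fold changes with treatment of 0.00, 0.08, and 0.02 at Years 0.5, 1, and 2. These matches are descriptions of sequence and not of binding, and their relation to the response was not tested.

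The lung contained the members at very different levels. Levels between genes were compared by TPM, which accounts for transcript length. In control rats *Sparc* was the most abundant member, with a mean TPM of 1652 ± 70.6 at Year 0.5, 1413 ± 80.3 at Year 1, and 1252 ± 63.8 at Year 2 (SD, n = 3 in each group). A second tier was formed by *Postn*, *Eln*, and *Fn1*, at 321, 314, and 283 TPM in controls at Year 0.5, whose ranges over rats overlapped from one to the next. *Ccn2* followed at 183 TPM, *Thbs1* at 51.8, *Tnc* at 26.4, and *Fbln2* at 10.8, each with its range apart from its neighbours. *Cthrc1* and *Thbs2* stood at the bottom with 5.51 and 2.94 TPM, and their ranges overlapped at Year 0.5 but were apart at Years 1 and 2. The 10 members together made up between 0.21% and 0.311% of the TPM of a rat.

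The order was different in MWCNT-treated rats. *Fn1* stood second in all of the treated groups, at 503 ± 32.9, 378 ± 95.6, and 518 ± 42 TPM at Years 0.5, 1, and 2, and at Year 2 its range lay apart from that of *Eln*, the next gene. *Thbs2* moved from the lowest place in every control group to eighth place at Years 0.5 and 1 and to seventh at Year 2, where its mean of 28.9 ± 3.64 TPM exceeded that of *Tnc* (13.9 ± 0.217) with no overlap of ranges. *Fbln2* took the lowest place in all of the treated groups, at 4.02, 2.77, and 2.23 TPM. *Sparc* stayed first throughout.

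**Figure D1:**
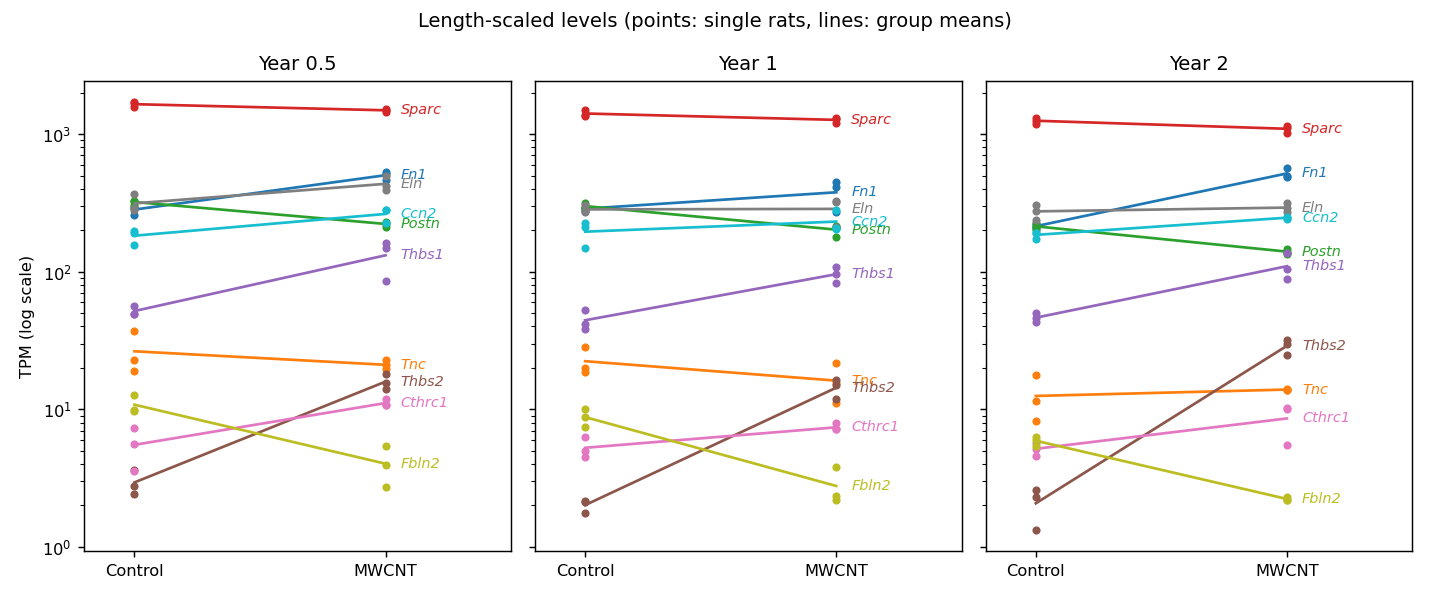
TPM on a log axis for the 10 members in control and MWCNT-treated rats, 1 panel per time point, with points for single rats and lines joining group means. *Thbs2* climbs from the bottom of each panel and crosses *Fbln2*, which goes down, and *Sparc* stays at the top, with means between 1094 and 1652 TPM.

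MWCNT-treated rats were compared with control rats at each time point to find which members differed with treatment. *Thbs1* and *Thbs2*, the genes of thrombospondins 1 and 2, rose and *Fbln2*, the gene of fibulin 2, fell at every time point, and *Fn1*, the gene of fibronectin, was a DEG at Year 2. A DEG was a gene that passed the FDR of 0.05 and changed by more than 1 on the log2 scale. The members were chosen with earlier results of these data known. Their counts beside the shares of all genes are therefore a description and no test of the set. At Year 0.5, 4 of the 10 members were DEGs, *Thbs1*, *Thbs2*, and *Cthrc1* higher and *Fbln2* lower, where 9.10% of the 14315 genes tested were DEGs, 6.07% higher and 3.03% lower. At Year 1 the number was 3, with *Thbs1* and *Thbs2* higher and *Fbln2* lower, against 10.2% of 14345 genes, 6.13% higher and 4.09% lower. At Year 2 it was 4, with *Fn1*, *Thbs1*, and *Thbs2* higher and *Fbln2* lower, against 16.4% of 14361 genes, 8.17% higher and 8.22% lower. *Thbs1* and *Thbs2* were thus DEGs in the higher direction at all 3 time points, as were 4.22% of genes tested at all of them, and *Fbln2* was a DEG in the lower direction at all 3, as were 1.18%. By FDR alone 8, 7, and 8 members differed at Years 0.5, 1, and 2, against 38.8%, 41.2%, and 49.2% of all genes. The median log2 fold change of the members was 0.64, 0.36, and 0.51, beside -0.02, 0.00, and -0.01 over all genes tested. All 10 members passed the filter on low counts at every time point.

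**Figure D2:**
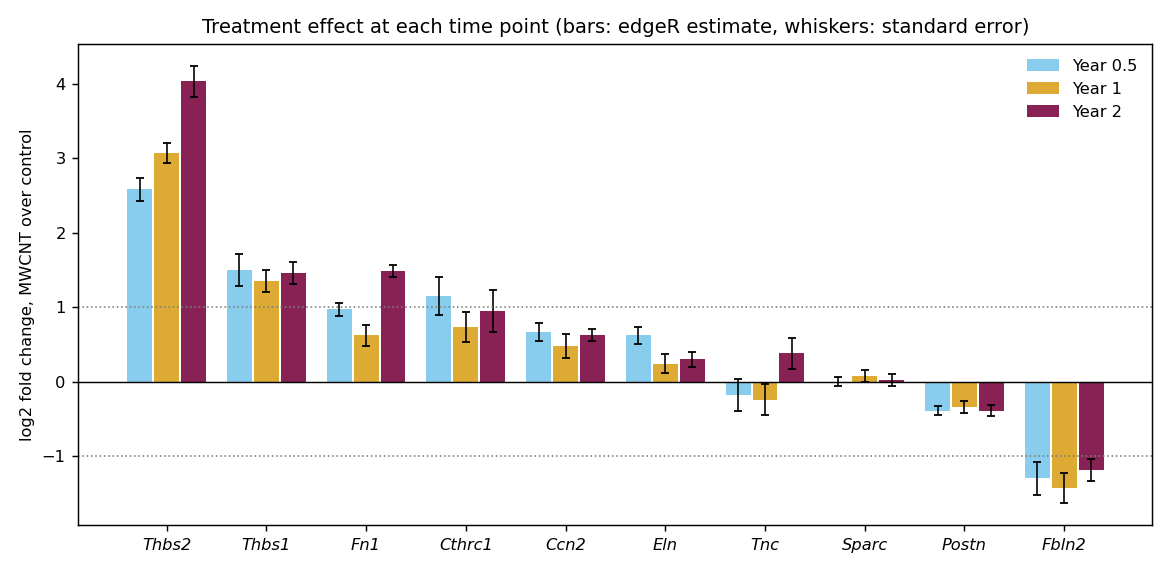
Log2 fold change of MWCNT-treated over control rats for each member at Years 0.5, 1, and 2, as bars with standard errors from the edgeR fit of 3 against 3 rats; dotted lines mark the limits of 1 and -1 for a DEG. *Thbs2* has the tallest bars, from 2.58 to 4.03, and *Fbln2* the deepest, from -1.19 to -1.43.

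*Thbs2* (ENSRNOG00000010529, chr1:56653938-56683731 on the minus strand, Rnor_6.0) encodes thrombospondin 2, a matricellular protein that binds cell-surface receptors and limits the growth of vessels. Values within a gene are given as CPM normalized over the 18 rats by TMM factors. In control rats it was 6.94, 7.89, and 10.3 at Year 0.5, 6.22, 5.89, and 4.87 at Year 1, and 6.81, 3.75, and 7.27 at Year 2. In MWCNT-treated rats it was 48.8, 58, and 43.5 at Year 0.5, 52, 41.1, and 48.1 at Year 1, and 110, 82.3, and 98.3 at Year 2. Every treated rat lay far above every control rat, and the 3 treated rats of Year 2 lay above all other treated rats. Its log2 fold change was 2.58 ± 0.16 (SE, FDR = 1.15e-05) at Year 0.5, 3.07 ± 0.13 (FDR = 2.01e-06) at Year 1, and 4.03 ± 0.21 (FDR = 1.37e-06) at Year 2, the last a 16.3-fold difference. It ranked 108th, 88th, and 75th from the top among the genes tested. The controls rest on 59 to 158 counts per rat, at which counting alone gives a coefficient of variation of up to 13%.

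*Thbs1* (ENSRNOG00000045829, chr3:109862117-109873466 on the plus strand) encodes thrombospondin 1, the platelet and tissue relative of thrombospondin 2 that activates latent TGF-beta. In control rats the CPM was 88, 100, and 87.2 at Year 0.5, 94.6, 71.8, and 66.8 at Year 1, and 85, 87.3, and 75.3 at Year 2. The treated rats had 289, 322, and 164 at Year 0.5, 216, 207, and 167 at Year 1, and 221, 280, and 181 at Year 2. No treated rat overlapped the controls, while the treated rats of Year 0.5 differed among themselves by a wider margin than the others. The log2 fold change was similar in size at the 3 time points, 1.50 ± 0.21 (SE, FDR = 0.00074), 1.35 ± 0.15 (FDR = 0.000163), and 1.46 ± 0.15 (FDR = 4.83e-05).

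The relation between the pair of thrombospondins within 1 rat does not depend on how libraries are scaled. The ratio of *Thbs2* to *Thbs1* in TPM was between 0.0267 and 0.0734 in the 9 control rats. In MWCNT-treated rats it was 0.105, 0.112, and 0.165 at Year 0.5, 0.15, 0.123, and 0.179 at Year 1, and 0.309, 0.182, and 0.337 at Year 2. All treated rats thus lay above all controls, and the treated rats of Year 2 were the highest, with a mean of 0.276 ± 0.0824 (SD, n = 3), although *Thbs1* remained the more abundant of the pair in every rat.

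*Fn1* (ENSRNOG00000014288, chr9:78900103-78969078 on the minus strand) encodes fibronectin. The CPM in control rats was 1054, 1223, and 1184 at Year 0.5, 1143, 1162, and 1155 at Year 1, and 893, 897, and 841 at Year 2. In MWCNT-treated rats it was 2296, 2433, and 2075 at Year 0.5, 2073, 1338, and 1892 at Year 1, and 2395, 2356, and 2673 at Year 2. Treated and control rats did not overlap at any time point, but 1 treated rat of Year 1, at 1338, lay nearer to the controls than to its companions. As a log2 fold change this was 0.97 ± 0.09 (SE, FDR = 6.9e-05) at Year 0.5, just under the limit for a DEG, 0.62 ± 0.14 (FDR = 0.00847) at Year 1, and 1.49 ± 0.08 (FDR = 2.1e-06) at Year 2. Without that rat the Year 1 value was 0.78. On the TPM scale the ranges at Year 1 overlapped, and limma on log2(TPM + 1) gave 0.36 (FDR = 0.109).

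*Ccn2* (ENSRNOG00000015036, chr1:21851660-21854773 on the minus strand), the gene of connective tissue growth factor, rose by a smaller amount. Its CPM in control rats was 207, 263, and 251 at Year 0.5, 196, 291, and 271 at Year 1, and 262, 248, and 225 at Year 2. In treated rats it was 325, 418, and 405, then 302, 333, and 419, and then 383, 376, and 383 at the same time points. The groups were apart at each time point, narrowly so at Year 1. Treatment changed it on the log2 scale by 0.67 ± 0.12 (SE, FDR = 0.00207), 0.48 ± 0.16 (FDR = 0.0396), and 0.63 ± 0.08 (FDR = 0.000144), below the limit for a DEG each time. On the TPM scale the ranges at Year 1 overlapped, and limma on log2(TPM + 1) gave 0.25 (FDR = 0.272).

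*Cthrc1* (ENSRNOG00000004578, chr7:77966722-77977004 on the plus strand) was one of the scarcer members, with 30 to 143 counts per rat. The control rats had CPM values of 3.32, 2.11, and 4.3 at Year 0.5, 2.97, 3.61, and 2.57 at Year 1, and 3.51, 2.67, and 3.01 at Year 2. The treated rats had 7.69, 7.1, and 6.9 at Year 0.5, 5.22, 5.12, and 4.76 at Year 1, and 7.08, 3.74, and 7 at Year 2. All treated rats were above the controls of their time point, the rat at 3.74 by a small margin, while on the TPM scale the ranges at Year 2 overlapped. On the log2 scale the difference was 1.15 ± 0.25 (SE, FDR = 0.0062), 0.73 ± 0.20 (FDR = 0.017), and 0.95 ± 0.28 (FDR = 0.0211). The position relative to the limit of 1 depended on single rats: without control rat 2 the Year 0.5 value was 0.92 and no longer a DEG, and without treated rat 2 the Year 2 value was 1.20 and a DEG, as it was without control rat 1, at 1.05.

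*Fbln2* (ENSRNOG00000007338, chr4:122835436-122895121 on the plus strand) encodes fibulin 2, which binds fibronectin, elastic fibres, and basement membranes, and was the only member that was a DEG in the lower direction. In control rats the CPM was 20.7, 20.4, and 26.5 at Year 0.5, 15.6, 20.5, and 18 at Year 1, and 13.8, 11.2, and 12.3 at Year 2. In MWCNT-treated rats it was 12.5, 6.35, and 8.92 at Year 0.5, 5.49, 5.55, and 8.93 at Year 1, and 5.75, 5.29, and 5.32 at Year 2. Every treated rat lay below the controls of its time point, and the controls themselves decreased with time. Treatment gave log2 fold changes of -1.30 ± 0.22 (SE, FDR = 0.00195), -1.43 ± 0.20 (FDR = 0.000646), and -1.19 ± 0.15 (FDR = 0.000161), where the last means a 2.29-fold lower level in treated rats.

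*Eln* (ENSRNOG00000001469, chr12:24978483-25021863 on the plus strand), the gene of elastin, rose at Year 0.5 with values of 492, 510, and 636 CPM in controls and 751, 825, and 935 in treated rats. This was a log2 fold change of 0.62 ± 0.12 (SE, FDR = 0.00308). At Year 1 the ranges overlapped, since 1 treated rat had 449 CPM while the others had 640 and 628, against 468 to 518 in controls, and the log2 fold change was 0.24 ± 0.13 (FDR = 0.17). At Year 2 treated rats had 566 to 636 CPM against 409 to 529 in controls, with a log2 fold change of 0.30 ± 0.10 (FDR = 0.0372). On the TPM scale the ranges overlapped at Year 2 as well, and limma on log2(TPM + 1) gave 0.10 (FDR = 0.446).

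*Postn* (ENSRNOG00000012660, chr2:143656793-143688087 on the plus strand) encodes periostin, a matricellular ligand of integrins that promotes collagen cross-linking. It fell by a small and even amount. Control rats had 479 to 517 CPM at Year 0.5, 442 to 502 at Year 1, and 329 to 349 at Year 2, and treated rats had 375 to 397, 339 to 382, and 242 to 276. The ranges were apart at every time point. Log2 fold changes were -0.39 ± 0.06 (SE, FDR = 0.00131), -0.34 ± 0.08 (FDR = 0.012), and -0.39 ± 0.07 (FDR = 0.0021).

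*Tnc* (ENSRNOG00000058645, chr5:79789671-79874671 on the minus strand) encodes tenascin-C, a matricellular protein of development and wound repair. Its values were spread widely among control rats, with 66.6, 80.5, and 129 CPM at Year 0.5, 65.9, 96.6, and 68.4 at Year 1, and 30.1, 39.8, and 61.1 at Year 2. The treated rats had 80.4, 76.9, and 86.6, then 85.7, 46.9, and 61.5, and then 59.4, 56.2, and 55.5. Treated and control rats overlapped at each time point. Fitted log2 fold changes were -0.18 ± 0.21 (SE, FDR = 0.517), -0.24 ± 0.21 (FDR = 0.386), and 0.38 ± 0.21 (FDR = 0.158), and the Year 0.5 value changed its sign to 0.15 without the control rat at 129.

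*Sparc* (ENSRNOG00000012840, chr10:40742400-40764185 on the minus strand) encodes the collagen-binding protein also called osteonectin. Normalized CPM ranged from 1572 to 1697 in controls and from 1634 to 1667 in treated rats at Year 0.5, from 1323 to 1520 and from 1465 to 1470 at Year 1, and from 1172 to 1306 and from 1230 to 1330 at Year 2. The log2 fold change was 0.00 ± 0.06 (SE, FDR = 0.966), 0.08 ± 0.08 (FDR = 0.471), and 0.02 ± 0.08 (FDR = 0.857). These values are relative to the scale: on log2(TPM + 1) the median of all genes shifted by -0.13, -0.21, and -0.19 at the 3 time points, and *Sparc* was then -0.15 at Year 1 and -0.19 at Year 2, which is about the shift itself.

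**Figure D3:**
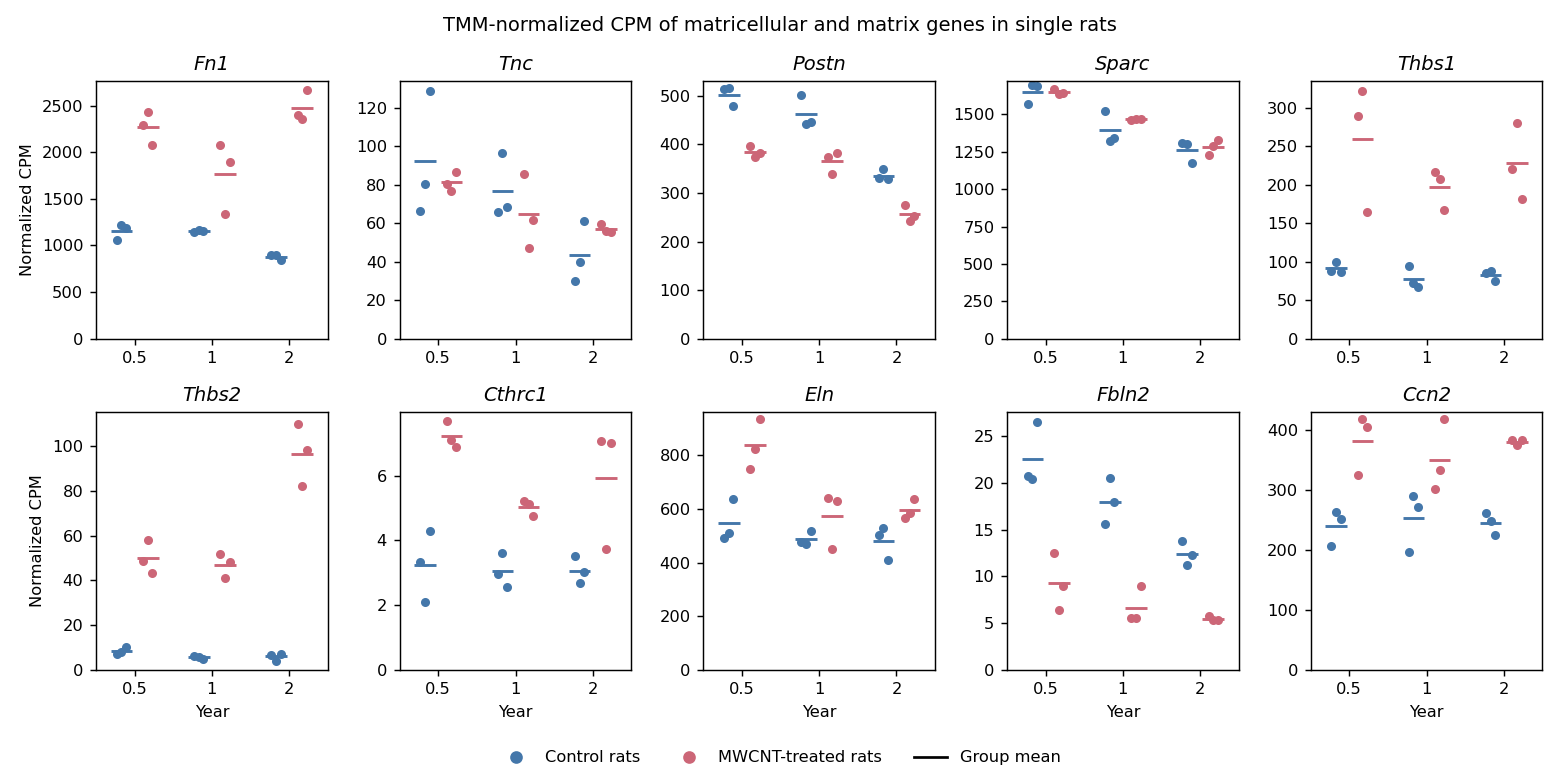
TMM-normalized CPM of the 10 members, 1 panel per gene with its own axis from 0, for control rats (blue) and MWCNT-treated rats (red) at Years 0.5, 1, and 2, with points for single rats and bars for group means (n = 3). Treated rats are above controls without overlap at every time point for *Fn1*, *Thbs1*, *Thbs2*, *Cthrc1*, and *Ccn2*, and below for *Postn* and *Fbln2*.

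On the CPM scale, treated rats lay wholly above controls in 6, 5, and 6 of the 10 members at Years 0.5, 1, and 2, as they did in 26.2%, 28.0%, and 30.9% of all genes. They lay wholly below in 2 members each time, as in 25.5%, 26.9%, and 28.9% of genes. On the TPM scale, 6, 3, and 4 members were wholly above and 3 wholly below each time, where 57.7%, 61.7%, and 63.8% of genes had ranges apart in either direction. The additional member below on that scale was *Sparc*.

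Ratios within a rat restate the unequal change without scaling between libraries. The pairs set a member that rose over one that fell or stayed level, so higher ratios in treated rats follow from the changes above. The share of all gene pairs with ratios apart was not counted. *Fn1* and *Postn* were of nearly equal TPM in control rats, with ratios from 0.788 to 1.04. In treated rats *Fn1* exceeded *Postn* by ratios of 2.22, 2.49, and 2.09 at Year 0.5, 2.13, 1.52, and 1.9 at Year 1, and 3.34, 3.73, and 4.06 at Year 2. The ratio of *Fn1* to *Fbln2* was between 22.9 and 41.1 in controls and between 94.1 and 258 in treated rats. *Fn1* relative to *Sparc* was between 0.165 and 0.215 in controls and between 0.223 and 0.493 in treated rats. None of these 3 ratios overlapped between the 9 control and the 9 treated rats. The ratio of *Eln* to *Postn* did overlap, at 0.852 to 1.37 in controls and 1.19 to 2.26 in treated rats, although within each time point the treated rats were higher.

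**Figure D4:**
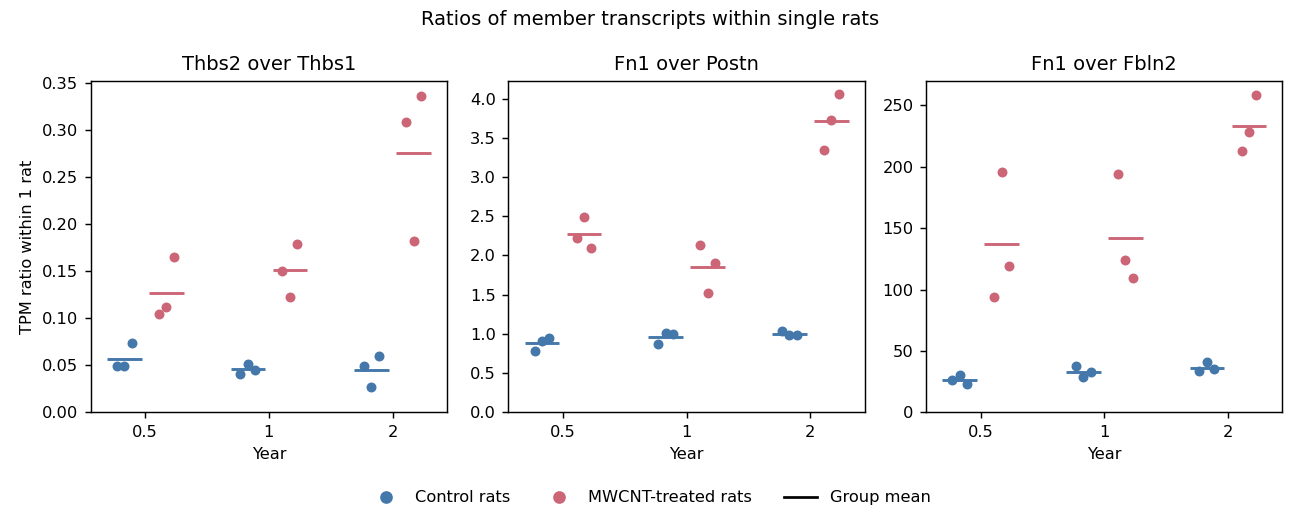
Ratios of TPM within single rats for *Thbs2* over *Thbs1*, *Fn1* over *Postn*, and *Fn1* over *Fbln2*, by time point, on axes from 0, with control rats in blue, MWCNT-treated rats in red, and bars for group means (n = 3). All treated rats lie above all control rats in each panel, and the mean of *Fn1* over *Postn* in treated rats is 2.27, 1.85, and 3.71 at Years 0.5, 1, and 2.

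Whether the treatment effect differed between time points was tested as an interaction in one model of the 18 rats, in which comparisons that involve the same year share its rats. The effect on *Thbs2* was larger at Year 2 than at Year 0.5, by a log2 difference of 1.45 ± 0.28 (SE, FDR = 0.0187), and it was the 1 member called there, against 1.31% of 14843 genes. This call rested on single rats, since the difference was 1.27 without control rat 3 of Year 0.5, 1.33 without treated rat 3 of Year 0.5, and 1.35 without treated rat 1 of Year 2, each with an FDR above 0.05. The difference for *Fn1* between the same years, 0.52 ± 0.17, did not pass (FDR = 0.152 with edgeR and 0.0557 with DESeq2). Between Years 1 and 2 the effect on *Fn1* grew by 0.88 ± 0.17 (SE, FDR = 0.0316), and it was the 1 member called, against 0.478% of genes. That call was lost on leaving out any of 9 single rats, with differences from 0.71 to 1.01 over all rats left out, and with limma on TPM, at 0.91. The difference for *Thbs2* between Years 1 and 2 was 0.97 ± 0.28 (FDR = 0.106) with edgeR, and DESeq2 called it as well (FDR = 0.0198). Between Years 0.5 and 1, edgeR called 0 of the 10 members and 0% of all genes, DESeq2 and limma called 0 members (6 and 1 of all genes), and 1 member, *Fn1*, had an unadjusted p below 0.05, as did 1260 of 14843 genes. No interaction passed the FDR for the other 8 members, with standard errors from 0.09 to 0.37.

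The level of some members also changed with time within a treatment. In control rats, *Tnc* was lower at Year 2 than at Year 0.5 by -1.08 ± 0.26 (SE, log2, FDR = 0.0232), the 1 member that met the DEG rule, against 0.633% of genes. The value ranged from -1.40 to -0.75 when single rats were left out and was no longer a DEG in 3 cases, namely without control rat 3 of Year 0.5 (-0.75), control rat 1 of Year 2 (-0.87), or control rat 2 of Year 2 (-1.02). *Postn* at -0.58 (FDR = 0.000489), *Sparc* at -0.39 (FDR = 0.00354), and *Fbln2* at -0.86 (FDR = 0.023) passed the FDR in control rats too, so that 4 members did, against 6.65% of genes. In MWCNT-treated rats between the same years, *Postn* at -0.58 (FDR = 5.97e-05), *Sparc* at -0.36 (FDR = 0.00191), *Fbln2* at -0.75 (FDR = 0.0358), and *Eln* at -0.49 (FDR = 0.0218) were lower and *Thbs2* at 0.95 (FDR = 0.00145) was higher. Hence 5 members passed the FDR, against 13.5% of genes, while by edgeR 0 members met the DEG rule, against 2.34%, DESeq2 and limma gave 0 as well, and 5 had an unadjusted p below 0.05.

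Between Years 0.5 and 1 edgeR called 0 members in treated rats (0.0472% of genes met the DEG rule and 0.101% the FDR) and 0 in controls (0% by either, with 1041 genes at an unadjusted p below 0.05, 21 by DESeq2, and 0 by limma). DESeq2 and limma called 0 members too, while 4 members in treated rats and 2 in controls had an unadjusted p below 0.05. From Year 1 to Year 2, *Thbs2* rose in MWCNT-treated rats by 1.04 ± 0.17 (SE, log2, FDR = 0.00195), the 1 DEG among the members, against 0.903% of genes, and it stood at 0.95 and 0.94 without treated rat 2 of Year 1 or treated rat 1 of Year 2. *Fn1* rose in the same rats by 0.49 ± 0.12 (FDR = 0.0218) and *Postn* fell by 0.51 on the log2 scale (FDR = 0.000677). In control rats over the same interval, *Postn* was at -0.46 (FDR = 0.00385) and *Fn1* at -0.39 (FDR = 0.0499), so that 2 members passed the FDR in controls, against 7.93% of genes, and 3 in treated rats, against 5.94%. By edgeR 0 members met the DEG rule in controls, against 0.499% of genes, DESeq2 and limma gave 0 as well, and 5 had an unadjusted p below 0.05. Treated and control rats therefore had *Fn1* changes of opposite sign between these years, which together form the interaction given above.

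The other genes of the same families and pathways were read from lists chosen with earlier results of these data known. Over these 84 genes, 7 were DEGs in the higher and 2 in the lower direction at Year 0.5 (10.7%), 6 and 3 at Year 1 (10.7%), and 13 and 9 at Year 2 (26.2%), beside 9.10%, 10.2%, and 16.4% of all genes. Among the 3 other thrombospondins, none was a DEG at any time point, and *Thbs3* had log2 fold changes of 0.46, 0.41, and 0.82 with an FDR below 0.05 each time. Of 4 other CCN genes tested, *Ccn4*, a WNT-induced member of the family, was a DEG at Years 0.5 and 2, with 2, 5, and 3 counts in controls of Year 2 and 41, 58, and 60 in treated rats. The others were not DEGs, and *Ccn3* (-0.50 and -0.42) and *Ccn5* (-0.58 and -0.49) were lower by FDR at Years 0.5 and 2. Tenascin-N, *Tnn*, was a DEG each time. At Year 2 it had 269, 22, and 22 counts in treated rats, against 1, 1, and 4 in controls. Every treated rat was above the controls there, while the size of the change was carried by 1 rat. *Spock2*, a proteoglycan of the SPARC family, fell at Year 2 by 1.68 on the log2 scale and was the only one of 7 genes in its list that was a DEG. By FDR alone, 1 gene of this list was higher each time, and 3, 2, and 3 were lower at Years 0.5, 1, and 2.

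Among 16 further elastic fibre genes, *Emilin2*, which encodes a glycoprotein of elastic tissue, was higher at each time point with log2 fold changes of 1.56 ± 0.15, 1.63 ± 0.08, and 1.97 ± 0.20 (SE). *Ltbp2*, a latent TGF-beta binding protein of microfibrils, was 1.12 higher at Year 2 and *Efemp1*, or fibulin 3, was at -1.16. The median of the list was 0.05, -0.01, and 0.23. Of 16 TGF-beta genes, 2, 2, and 3 were DEGs in the higher and 1, 2, and 4 in the lower direction at Years 0.5, 1, and 2. Those with the largest changes at Year 2 were *Inhba*, the activin A subunit (1.67, 1.57, and 3.47), *Tgfbr1*, the type I receptor (1.87, 1.76, and 2.31), *Acvrl1*, the endothelial type I receptor, a DEG in the lower direction at Years 0.5 and 2 (-1.57 at Year 2), and *Tgfbr3*, the co-receptor betaglycan (-0.91, -1.16, and -1.42). *Inhba* rests on few counts in controls, 1, 8, and 18 at Year 2.

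Among 16 receptors for the members, *Itgb8*, a partner of the alpha-v integrin chain, was a DEG each time at 2.23 ± 0.19, 2.12 ± 0.14, and 2.10 ± 0.19 (SE, log2). *Itgav*, the alpha-v chain, and *Itgb6*, its epithelial partner, were DEGs at Year 2 with 1.39 and 1.43. None of the receptors was a DEG in the lower direction. Of 9 proteoglycan genes, *Vcan*, or versican, rose by 1.41, 1.10, and 1.89, *Ogn*, or osteoglycin, was at -1.15, -1.12, and -1.31, and *Dcn*, or decorin, and *Hapln3* fell at Year 2 by 1.31 and 1.26. Of 12 collagen genes, none was a DEG at Years 0.5 and 1, when 4 and 3 were higher and 2 and 3 lower by FDR alone, and *Col8a1* (1.52) and *Col1a1* (1.22) were DEGs at Year 2, when 7 were higher and 2 lower by FDR.

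**Figure D5:**
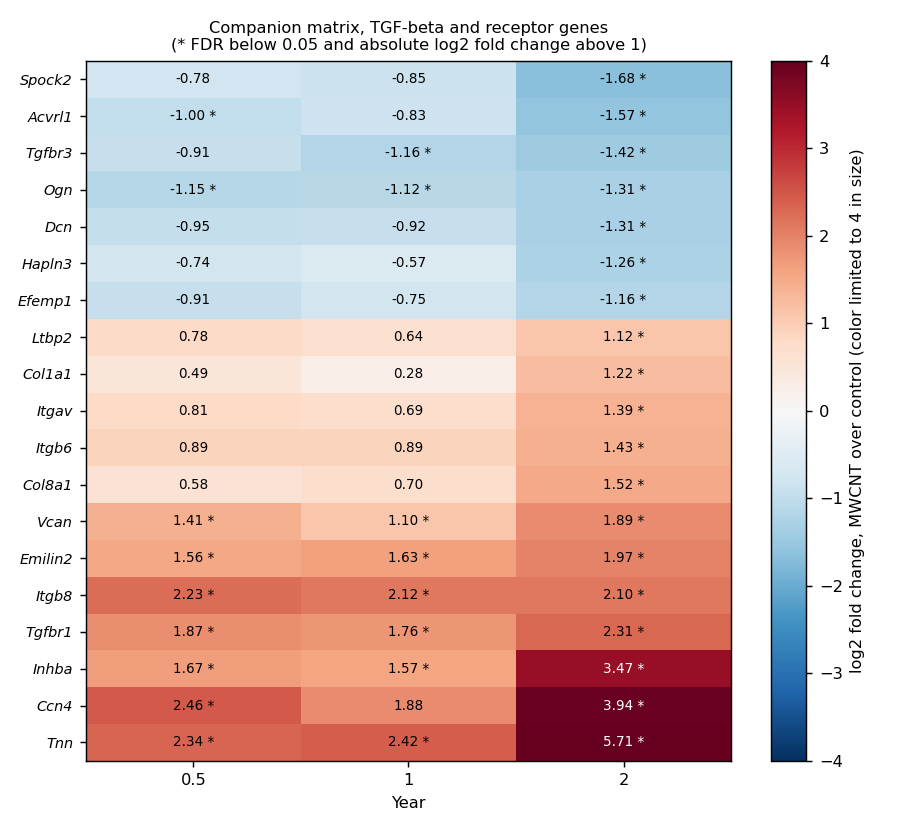
Log2 fold changes of MWCNT-treated over control rats at Years 0.5, 1, and 2 for genes of the related lists, at most 4 per list, with asterisks for DEGs and color limited to 4 in either direction. *Emilin2*, *Tgfbr1*, *Itgb8*, *Vcan*, *Inhba*, and *Tnn* are DEGs in the higher direction in all 3 columns and *Ogn* in the lower, and the *Tnn* and *Ccn4* values rest on few counts.

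Markers of cell types that can hold these transcripts moved with treatment as well. Macrophage markers were DEGs in the higher direction in 7, 6, and 8 of 10 genes, with 1 in the lower direction at Year 1. The list medians were 1.67, 1.50, and 2.09 on the log2 scale. Their summed TPM was 595 to 803 in control rats and 2970 to 5719 in treated rats, with no overlap. *Gpnmb* made up more of these sums than any other gene, at 229 to 367 TPM in controls and 2065 to 4353 in treated rats. Smooth muscle and myofibroblast markers were lower by FDR in 10 of 10 genes at each time point (2, 4, and 4 DEGs), with sums of 1320 to 2100 TPM in controls and 677 to 1031 in treated rats. Fibroblast markers had no DEG among 10 genes, with 7, 6, and 5 lower and 2, 0, and 2 higher by FDR, and sums of 3124 to 4227 TPM in controls and 2014 to 2739 in treated rats at Years 0.5 and 1. At Year 2 these sums were 1346, 1378, and 3686 in controls and 1140 to 1492 in treated rats. The control rat at 3686 differed from the other controls of Year 2 through *Mfap4*, a gene singled out after its values were seen, at 2590 TPM against 280 and 293. *Mfap4* made up more of the sums of Years 0.5 and 1 than any other gene, at 1891 to 2951 TPM in controls. The controls at 280 and 293 were therefore the ones apart from the earlier controls. In treated rats it was 1245 to 1761 TPM at Years 0.5 and 1 and 486 to 840 at Year 2. The fibroblast list also holds *Pdpn*, which is not particular to fibroblasts and is expressed by type 1 alveolar cells. It was among the genes lower by FDR each time, at -0.23, -0.22, and -0.72 on the log2 scale.

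Endothelial markers were lower by FDR in 7 of 7 genes each time (3, 1, and 5 DEGs), with sums of 2329 to 3048 TPM in controls and 779 to 1673 in treated rats. Mesothelial sums overlapped at Year 0.5, at 428 to 667 TPM in controls and 479 to 509 in treated rats. They did not at Year 1 (535 to 548 against 471 to 515) or Year 2 (527 to 567 against 399 to 513), and 1 of these 8 genes was a DEG, lower at Year 2. *Krt19*, a keratin, made up most of these sums, and by FDR 4 of the 8 genes were higher and 1 lower at Year 1 and 1 higher and 3 lower at Year 2, with list medians of -0.15, 0.24, and -0.08 on the log2 scale. Platelet marker sums were 54.6 to 70.3 TPM in controls and 108 to 145 in treated rats, a difference carried by *Pf4*, at 31.2 to 45.9 TPM in controls and 99.1 to 136 in treated rats. *Pf4* was the only one of 5 genes higher by FDR, while 2, 3, and 2 were lower (1, 2, and 1 DEGs), and the list median was -0.61, -0.56, and -0.65. Heart muscle sums were 73.3 to 675 TPM in controls and 15.8 to 204 in treated rats, with 7 of 8, 2 of 8, and 1 of 6 genes tested DEGs in the lower direction. Red blood cell sums were 5241 to 12276 TPM in controls and 1269 to 3328 in treated rats, with both genes DEGs each time. Lymphocyte sums were 94.7 to 144 and 29.6 to 82.1 TPM, with 2, 0, and 4 of 6 genes DEGs in the lower direction. Alveolar epithelial sums were 31167 to 39719 TPM in controls and 52061 to 61875 in treated rats, with 2, 2, and 3 of 9 genes DEGs in the higher and 0, 1, and 1 in the lower direction. *Sftpc*, a surfactant gene of type 2 cells, made up more of these sums than any other gene, at 17721 to 23609 TPM in controls and 32139 to 39059 in treated rats. The type 1 cell markers *Ager*, *Aqp5*, *Hopx*, and *Rtkn2* went the other way and were lower by FDR at each time point, except *Ager* at Year 1 (-0.20, FDR = 0.124). Airway epithelial sums were 18272 to 33030 and 10669 to 15749 TPM, with no DEG among 4 genes and 2, 3, and 2 lower by FDR. *Scgb1a1* made up most of these sums, at 17673 to 32241 TPM in controls and 10255 to 15208 in treated rats. Airway cartilage markers were near 0, at 1.52 to 4.56 TPM in all groups, with *Col2a1*, *Matn1*, and *Cnmd* at 0 counts in all rats of some groups. The part of these cell types in the changes of the members was not tested.

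Within groups, the members varied largely apart from one another. Over the 18 rats, the deviations of log2 CPM from the 6 group means had a median r of 0.11 over the 45 pairs of members, with 30 positive. The highest was between *Fn1* and *Eln* (r = 0.63) and the lowest between *Thbs1* and *Ccn2* (r = -0.38), while *Thbs1* and *Thbs2* had r = 0.08. The rats share library scaling and, within a year, any batch of libraries, so these are descriptions. Single rats had from 2 to 8 of the 10 members below their group mean, and the treated rat of Year 1 with the low *Fn1*, *Tnc*, and *Eln* values had 7. Among 14843 genes, those with deviations most like *Fn1* were *Itpr3* (r = 0.91), *Col12a1* (r = 0.90), and *Cpsf1* (r = 0.89). Those most like *Tnc* were *Rbm6* (r = 0.92), *Piwil2* (r = 0.91), and the microfibril gene *Fbn1* (r = 0.89). The highest r was with *Mgat1* (r = 0.94) for *Sparc*, *Eif3i* (r = 0.91) for *Thbs1*, and *PCOLCE2* (r = 0.91) for *Fbln2*. For *Thbs2* the named gene with the highest r was *Zmpste24* (r = 0.84), for *Cthrc1* it was *Kng1* (r = 0.91), for *Eln* *Prr12* (r = 0.90), for *Ccn2* *Pim3* (r = 0.88), and for *Postn* *Rab5b* (r = 0.84). With so many genes compared over 18 rats, values of this size are a ranking and not a finding.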

How the data were processed

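RNA-seq of the lungs of 18 rats was analysed, with 3 rats in each of 6 groups of treatment and time point taken from the sample labels. Per the submitters' processing notes, the authors used CLC Genomics Workbench 22.0.2 with the rat genome Rnor_6.0 (rn6). How reads with several matching places were handled is not given in the sources used here. The authors deposited, for each rat, the count of reads per gene without normalization, the RPKM, the TPM, and the CPM adjusted with TMM factors, a normalized signal. The RPKM and the authors' comparison columns (fold changes and p-values) were not used, and the deposited adjusted CPM served as an alternative scale.

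Counts were tested in R 4.3.3 with the quasi-likelihood test of edgeR 4.0.16, after filterByExpr (minimum count of 10, minimum total count of 15) and TMM normalization, on the 6 rats of a time point. The interaction and the time comparisons used one model of 18 rats. The Benjamini-Hochberg FDR covered all genes tested. DEGs passed an FDR of 0.05 with a log2 fold change beyond 1 in either direction, and interactions the FDR alone. Alternatives were other filters and scalings, DESeq2 1.42.0, limma 3.58.1 on log2(TPM + 1) and log2(TPM + 0.1), other thresholds, a block for the replicate number, a model of the 18 rats together, and each rat left out in turn. The code was tested on simulated data. Promoter windows came from RefSeq GRCr8, and figures were drawn in Python 3.11.15.

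The members and lists were chosen with earlier results of these data known. All members were named. From each related list at most 4 DEGs were named, those with the largest change at Year 2. *Thbs3*, *Ccn3*, *Ccn5*, and the marker genes that are named were chosen in addition after their values were seen. Marker lists are given by counts and sums, and 1 gene was left out of the TGF-beta list before counting and is not reported here. For a member, up to 3 genes most alike between rats could be named.

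Total counts of 13297643 to 21130757 per rat set the precision of scarce genes, for which counting error adds to the spread between rats.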

Additional observations from a re-analysis of the deposited data

Results flagged for a closer look

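The treatment effect on *Thbs2* differed between time points when the difference itself was tested, with a log2 difference of 1.45 ± 0.28 (SE, FDR = 0.0187, edgeR interaction test) between Year 2 and Year 0.5. The treated rats of Year 2 had 110, 82.3, and 98.3 normalized CPM and those of Year 0.5 had 48.8, 58, and 43.5, all of the former being higher. DESeq2 gave 1.44 (FDR = 4.83e-05). The call was lost without 3 of the 18 rats, each in turn.

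The treatment effect on *Fn1* also differed between time points, by a log2 difference of 0.88 ± 0.17 (SE, FDR = 0.0316, edgeR interaction test) between Year 2 and Year 1. All 3 treated rats of Year 2 lay above all 3 of Year 1, and all 3 controls of Year 2 lay below all 3 of Year 1. DESeq2 gave 0.88 (FDR = 9.06e-05), and the call was lost without 9 of the 18 rats, each in turn. As both differences involve Year 2, the time point and any batch of libraries, which the labels do not name, cannot be told apart.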

How the results depend on the processing

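At the 3 time points the number of members called was 4, 3, and 4, and it became 8, 7, and 8 by FDR alone. Leaving out single rats gave 4 to 5, 3, and 4 to 5. For the interaction of Year 2 against Year 1, DESeq2 called 2 members and limma called 0 on TPM with either pseudocount, and for time in treated rats of Year 2 against Year 1 limma on log2(TPM + 1) called 0. Without single rats the numbers called ranged from 0 to 2 for the interaction of Year 2 against Year 0.5, and from 0 to 1 for that of Year 2 against Year 1 and for the comparisons of Year 2 with Years 0.5 and 1 in treated and in control rats. *Cthrc1* at Year 0.5 was 0.94 with limma on log2(TPM + 1), below the limit, and *Fn1* at Year 0.5 was above it, at 1.02 and 1.05, without control rat 2 or treated rat 3.

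Signs changed for values near 0. *Tnc* at Year 0.5 was 0.15 without control rat 3, within a range of -0.37 to 0.15. *Sparc* at Year 1 was -0.05 with library size only and -0.15 with both limma fits. *Sparc* at Year 2 was -0.15 with library size only, -0.03 with upper quartile factors, -0.19 and -0.20 with limma, and -0.03 to 0.05 without single rats. *Eln* at Year 1 was -0.01 with both limma fits. At Years 1 and 2 the median of all genes shifted by -0.13 and -0.17 with library size only and by -0.19 to -0.23 with limma on TPM. The cause of these changes was not tested. By FDR alone, both limma fits lost *Fn1* (0.36, FDR = 0.109 and 0.111) and *Ccn2* (0.25, FDR = 0.272 and 0.274) at Year 1 and *Eln* at Year 2 (0.10, FDR = 0.446 and 0.448). Library size only lost *Ccn2* at Year 1 (0.35, FDR = 0.114) and *Eln* at Year 2 (0.13, FDR = 0.3), and *Eln* at Year 2 was also lost with upper quartile factors (FDR = 0.0678), one model of the 18 rats (FDR = 0.06), and the replicate block (FDR = 0.0727).

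The labels name no pairs of rats. Deviations of same-numbered rats had a mean r of 0.0108 across genes (-0.151 to 0.115 over 9 pairs). Rats of different number had -0.00511 (-0.16 to 0.176 over 18 pairs), and 7 of 18 rats correlated best with their own number. With deviations from means of 3 rats, these values are descriptions and cannot exclude pairing. With the replicate number as a block the members called stayed at 4, 3, and 4, and at 1 for both interactions that had a call. Depth limits *Cthrc1*, *Fbln2*, and *Thbs2* most, whose lowest counts were 30, 78, and 59.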
